A study of Mus musculus with 6 samples.

Results

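The sirtuins are a family of 7 genes, Sirt1 to Sirt7, and each was found in the deposited tables by its symbol. All 7 of the 24421 gene symbols with a read count also had an FPKM value (fragments normalized to transcript length and library size), and all 7 passed the filter on low counts that left 14612 genes to test. Their levels were followed in liver endothelial cells (ECs) that had been sorted as CD31+CD45- from 3 young (10-week-old) and 3 aged mice, with 1 library per sample. The aged mice were 127, 131 and 136 weeks old and are named here by their age. All were wild-type C57BL/6J mice, and the methods state that the animals of the study were female. The comparison of young with aged ECs was made to find transcripts that differ with age.

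Sirtuins remove acetyl and other acyl groups from lysines, and each reaction uses up 1 molecule of NAD. The products are nicotinamide, which inhibits the enzymes, and an acyl-ADP-ribose. Sirt1, Sirt6 and Sirt7 are mainly nuclear, Sirt2 is mainly cytoplasmic, and Sirt3, Sirt4 and Sirt5 are mitochondrial. In ECs, Sirt1 is known for acting on the nitric oxide synthase Nos3 and on FOXO transcription factors, and it has been studied widely in vascular aging.

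The genes lie on 5 chromosomes of the mouse assembly NCBIM37 (mm9), and the GENCODE annotation of that build lists all 7 as protein-coding. Sirt1 spans chr10:62781753-62844452 and Sirt6 spans chr10:81084530-81090542, both on the minus strand. Sirt2 lies on the plus strand at chr7:29551754-29573684, and Sirt3 on the minus strand of the same chromosome at chr7:148049569-148068208. Sirt4 (chr5:115928019-115934734) and Sirt7 (chr11:120479686-120486554) are on minus strands, while Sirt5 (chr13:43460882-43490571) is on a plus strand. Some exonic bases are shared with neighbours. They are 9.68% of the exonic bases of Sirt3 with Psmd13 and 3.89% with Ric8, 2.41% of those of Sirt7 with Mafg, 1.22% of those of Sirt1 with Gm16145, and 1.18% of those of Sirt2 with Nfkbib. Mafg is on the same strand as Sirt7 and the others are on opposite strands. Whether the counting used the strand is not given in the sources used here, so reads in these stretches are of uncertain origin.

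The family is defined by a shared catalytic core, and the stretch of coding sequence shown here encodes a part of the core that helps to bind NAD. It was found in each gene by 1 amino acid pattern of the family. Each stretch is 42 bases of the coding sequence in the GENCODE transcripts, 5′ to 3′, and the capitals mark the 12 bases that are the same in all 7 genes. The codons of the pattern fix these same 12 bases, so their sameness follows from the choice of stretch. They also count in the identities given below.
Sirt1: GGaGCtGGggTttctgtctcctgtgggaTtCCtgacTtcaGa
Sirt2: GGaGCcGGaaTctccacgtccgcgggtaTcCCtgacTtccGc
Sirt3: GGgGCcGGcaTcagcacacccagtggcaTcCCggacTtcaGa
Sirt4: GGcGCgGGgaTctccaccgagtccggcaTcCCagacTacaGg
Sirt5: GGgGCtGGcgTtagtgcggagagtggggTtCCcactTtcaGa
Sirt6: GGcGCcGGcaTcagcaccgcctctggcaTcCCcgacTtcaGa
Sirt7: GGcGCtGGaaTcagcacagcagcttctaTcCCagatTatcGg
The stretches of Sirt3 and Sirt6 were the most alike, with 36 of 42 bases the same (85.7%). The lowest identity was 42.9%, between Sirt1 and Sirt7 and between Sirt2 and Sirt5. The Sirt4 stretch (chr5:115932905-115932946, minus strand) and the Sirt5 stretch (chr13:43467257-43467298, plus strand) each had 1 exact match on the gene's own chromosome and strand. The search did not cover other chromosomes. The other stretches had no unbroken match in the same search, and whether they cross exon boundaries was not checked. No pair of genes had the same 42 bases, and the reads were 75 bases long.

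The libraries held 23001556 to 31651817 counts, so 3 counts, the floor used here, stood for 0.0948 to 0.130 CPM (counts scaled to library size). Levels in CPM were scaled between samples with TMM factors, which lay between 0.964 and 1.11. Each sirtuin had at least 162 counts in every sample, and the highest was 3997 for Sirt2. This floor covers counting error only. The 3 samples of an age were collected independently, and the p-values and the 95% intervals of fold changes given here rest on the spread between samples. In 1 respect the libraries differed but did not divide by age, and the sources used here do not say whether it is technical. Lars2 and Rn45s, which collect ribosomal RNA reads, took 1.29% of the counts in young replicate 3, 0.960% at 127 weeks and 4.68% to 5.53% in the other 4 samples. The endothelial gene Pecam1, which encodes CD31, ran from 1366 to 1635 CPM in all samples, while Ptprc, which encodes CD45, was at most 1.70 CPM in young samples and 7.56, 1.28 and 25.6 CPM at 127, 131 and 136 weeks. The summed level of 14 leukocyte markers was 43.3 to 88.1 CPM in young and 32.8 to 503 CPM in aged samples, and that of 10 endothelial markers was 19854 to 21984 CPM and 9887 to 15022 CPM. For 4 cholangiocyte markers the sum was 85.7 to 102 CPM in young and 181 to 228 CPM in aged samples. For 7 stellate and mural markers it was 110 to 380 CPM and 191 to 652 CPM, and for 9 hepatocyte markers 130 to 190 CPM and 71.7 to 99.0 CPM. In a bulk sample, fewer cells of a type and less RNA per cell cannot be told apart.

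All 7 sirtuins were present in ECs of both ages, and Sirt2 stood far above the rest. Levels between genes are compared here in the FPKM deposited by the authors, which take transcript length into account. Over the 6 samples, the mean FPKM was 83.3 ± 17.5 (SD, n = 6) for Sirt2, 22.9 ± 5.17 for Sirt7, 11.5 ± 2.53 for Sirt3, 9.88 ± 2.91 for Sirt1, 9.87 ± 1.74 for Sirt5, 6.03 ± 1.34 for Sirt4 and 4.95 ± 0.586 for Sirt6. The lowest Sirt2 sample (60.7 FPKM) was above the highest Sirt7 sample (30.7 FPKM), and the lowest Sirt7 sample (18.4 FPKM) was above the highest Sirt3 sample (14.2 FPKM). Below Sirt7 the ranges of neighbouring genes overlapped, except that the lowest Sirt5 sample (8.25 FPKM) was above the highest Sirt4 sample (7.95 FPKM).

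**Figure D1:**
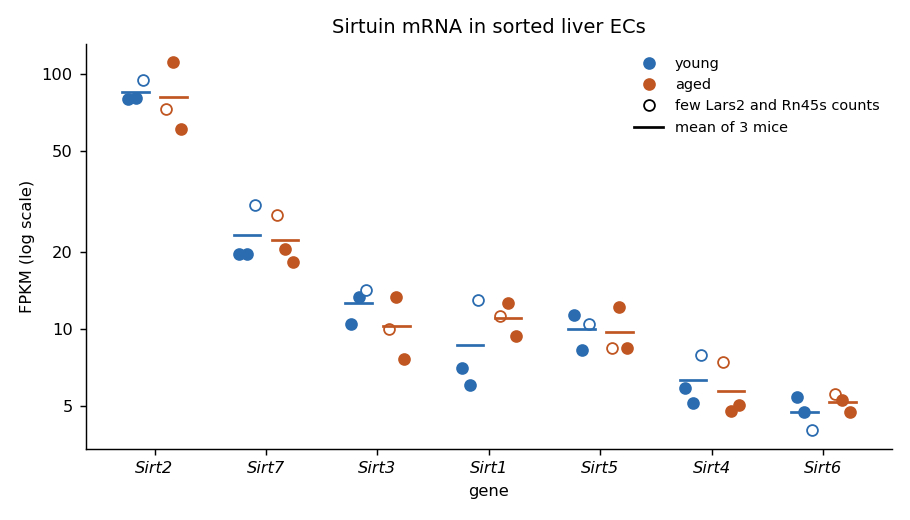
FPKM (log axis) of the 7 sirtuins, ordered by their mean, with 1 point per sample, young in blue and aged in orange. Open points are the 2 libraries with few Lars2 and Rn45s counts and short lines are means of 3 mice. Sirt2, at 60.7 to 111 FPKM, lies above every point of the other genes, and young and aged points overlap for each gene.

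Neighbours in this order were compared within each sample, by a two-sided exact sign-flip permutation test of the log2 FPKM difference over the 6 samples. The order came from the mean FPKM of these same samples, so the pairs were not fixed in advance and the p-values are descriptive. Its smallest possible p is 0.03125, and p-values were adjusted over the 6 neighbouring pairs. Sirt2 was 3.65-fold above Sirt7 in the geometric mean and higher in 6 of 6 samples (exact p = 0.03125, adjusted p = 0.0625). Sirt7 was 1.99-fold above Sirt3, and Sirt5 was 1.65-fold above Sirt4, each in 6 of 6 samples with the same exact p-values. These 3 steps held in every sample but no adjusted p was below 0.05.

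The other 3 steps were not settled. The ratio of Sirt3 to Sirt1 was 1.19, with Sirt3 higher in 4 of 6 samples (exact p = 0.375, adjusted p = 0.45). The ratio of Sirt1 to Sirt5 was 0.974 in the geometric mean (exact p = 0.906), and that of Sirt4 to Sirt6 was 1.20 (5 of 6 samples, exact p = 0.156, adjusted p = 0.234). Within ages, the mean FPKM of Sirt1 stood below that of Sirt5 in young ECs (8.67 ± 3.75 and 10.0 ± 1.60, n = 3 each) and above that of Sirt3 in aged ECs (11.1 ± 1.65 and 10.3 ± 2.84), differences within the spread between mice. The place of Sirt7 rests on the transcript length. CPM per kilobase of the longest coding transcript gave the same order as FPKM, but CPM per kilobase of all annotated exons, a scale added after the data were seen, put Sirt7 (6.995) behind Sirt3 (9.17) and Sirt1 (7.18).

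By compartment, the cytoplasmic member Sirt2 made up 50.8% to 61.7% of the summed FPKM of the family. The 3 nuclear members together made up 21.4% to 31.2%, and the 3 mitochondrial members 16.9% to 19.8%. The sum over all 7 genes was 140, 138 and 175 FPKM in the young samples and 144, 180 and 114 FPKM at 127, 131 and 136 weeks. The highest and the lowest sums were both in aged samples.

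No sirtuin differed between young and aged ECs beyond the spread between mice. The quasi-likelihood test of edgeR, fitted over all 14612 genes, called 0 of 7 at a Benjamini-Hochberg adjusted p below 0.05, and 0 of 7 had an unadjusted p below 0.05. In that test 0 of all genes (0%) passed the adjusted threshold (the smallest adjusted p was 0.0735), and 12.6% had an unadjusted p below 0.05. DESeq2, run as an alternative, called 0 of 7 sirtuins and 4.57% of the genes it tested. Overlap of the ages was judged in CPM here and for the lists below. The young and aged values overlapped for all 7 sirtuins, while 17.9% of all genes had values that did not overlap. The median log2 fold change of the 7 genes (aged minus young) was -0.05, against 0.01 for all genes tested, and 2 of 7 were positive, against 51.1% of all genes.

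**Figure D2:**
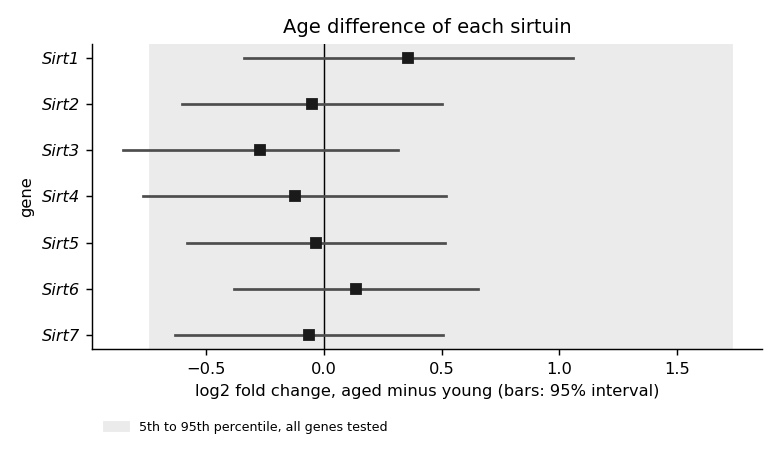
Log2 fold change of each sirtuin (aged minus young, squares) with its 95% interval (lines) from the edgeR fit of 3 young and 3 aged samples. The grey band holds the 5th to 95th percentile of all genes tested (-0.74 to 1.73). Every interval crosses 0.

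Sirt1, a deacetylase of histones and of many transcription factors, had the largest estimate. It stood at 27.4, 23.2 and 49.9 CPM in young replicates 1, 2 and 3, and at 43.1, 49.7 and 36.1 CPM at 127, 131 and 136 weeks. Young replicates 1 and 2 were the lowest samples, but young replicate 3 was the highest of all 6, so that the ages overlapped. The mean was 33.5 ± 14.3 CPM (SD, n = 3) in young and 43.0 ± 6.82 CPM (n = 3) in aged ECs. The fold between them was 1.28, with a 95% interval of 0.790 to 2.08 (log2 fold change 0.36, SE 0.30, edgeR adjusted p = 0.685), and 61.5% of all genes had a log2 fold change of the same or a smaller size.

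The Sirt1 value depended on young replicate 3, 1 of the 2 libraries with few Lars2 and Rn45s counts. Without it, the log2 fold change was 0.76 (SE 0.20, edgeR unadjusted p = 0.00726, adjusted p = 0.342). On log2(CPM + 1), Sirt1 was 0.95 higher in young replicate 3 than in the mean of the other young samples, but in aged samples the corresponding difference was 0.03. The aged-minus-young difference was 0.73 among the 4 libraries with many such counts and -0.20 between the 2 libraries with few. With a term for this library difference in the edgeR fit, the log2 fold change of Sirt1 was 0.44 (adjusted p = 0.405).

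Sirt6, a chromatin-bound enzyme with roles in DNA repair and telomere maintenance, varied least. Its level was 8.48, 7.49 and 6.15 CPM in young samples and 8.56, 8.32 and 7.43 CPM at 127, 131 and 136 weeks, a 1.39-fold range over the 6 samples. The highest sample was an aged sample and the lowest was young replicate 3, but the ages overlapped. The fold was 1.10 (95% interval 0.767 to 1.58, log2 fold change 0.14, SE 0.22, edgeR adjusted p = 0.865). On log2(CPM + 1), aged minus young was -0.02 among the libraries rich in Lars2 and Rn45s and 0.42 between the 2 others.

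Sirt7, a nucleolar sirtuin that promotes ribosomal RNA transcription, was highest in 1 library of each age. It stood at 31.0, 31.0 and 48.4 CPM in young samples and at 43.9, 32.6 and 29.2 CPM at 127, 131 and 136 weeks. The 2 highest samples were young replicate 3 and the 127-week sample, which are the libraries with few Lars2 and Rn45s counts. On log2(CPM + 1) these libraries were higher than the others by 0.623 in young and by 0.499 in aged ECs. The aged-to-young fold was 0.956 (95% interval 0.645 to 1.42, log2 fold change -0.06, SE 0.24, edgeR adjusted p = 0.951).

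Sirt2, known as a tubulin deacetylase, had the highest FPKM, and its aged samples lay on both sides of the young ones. Its level was 110, 109 and 126 CPM in young samples and 97.0, 153 and 82.9 CPM at 127, 131 and 136 weeks. The 131-week sample was the highest of all 6, and the other aged samples were the lowest. The means, 115 ± 9.62 and 111 ± 37.1 CPM (n = 3 each), gave a fold of 0.965 (95% interval 0.658 to 1.42, log2 fold change -0.05, SE 0.24, edgeR adjusted p = 0.959). Without the 131-week mouse the log2 fold change was -0.35 (SE 0.16, edgeR unadjusted p = 0.0661, adjusted p = 0.335).

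Among the mitochondrial members, Sirt3, the main deacetylase of that compartment, had the largest negative estimate of the family. It stood at 13.2, 16.6 and 17.4 CPM in young samples and at 13.0, 16.7 and 9.54 CPM at 127, 131 and 136 weeks. The 136-week sample was the lowest, and the 131-week sample was higher than 2 of the 3 young samples. The fold was 0.830 (95% interval 0.554 to 1.24, log2 fold change -0.27, SE 0.25, edgeR adjusted p = 0.725). Without the 131-week mouse the log2 fold change was -0.48 (edgeR adjusted p = 0.389), and without the 136-week mouse it was -0.09 (adjusted p = 0.976).

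Sirt4, which has little deacetylase activity and removes other acyl groups, was at 8.26, 7.31 and 11.1 CPM in young samples and at 10.5, 6.84 and 7.11 CPM at 127, 131 and 136 weeks. As with Sirt7, its 2 highest samples were the libraries with few Lars2 and Rn45s counts, by 0.46 in young and 0.53 in aged ECs on log2(CPM + 1). The fold between ages was 0.917 (95% interval 0.588 to 1.43, log2 fold change -0.12, SE 0.27, edgeR adjusted p = 0.907).

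Sirt5, which removes succinyl, malonyl and glutaryl groups, was at 14.2, 10.2 and 13.0 CPM in young samples and at 10.4, 15.1 and 10.9 CPM at 127, 131 and 136 weeks. Its lowest sample was young and its highest was aged. The fold was 0.977 (95% interval 0.668 to 1.43, log2 fold change -0.03, SE 0.23, edgeR adjusted p = 0.976). A p above the threshold does not show equal levels: for each of the 7 genes the interval still held a log2 change of 0.50 in the direction of its wider side, and for Sirt1 it reached a fold of 2.08.

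**Figure D3:**
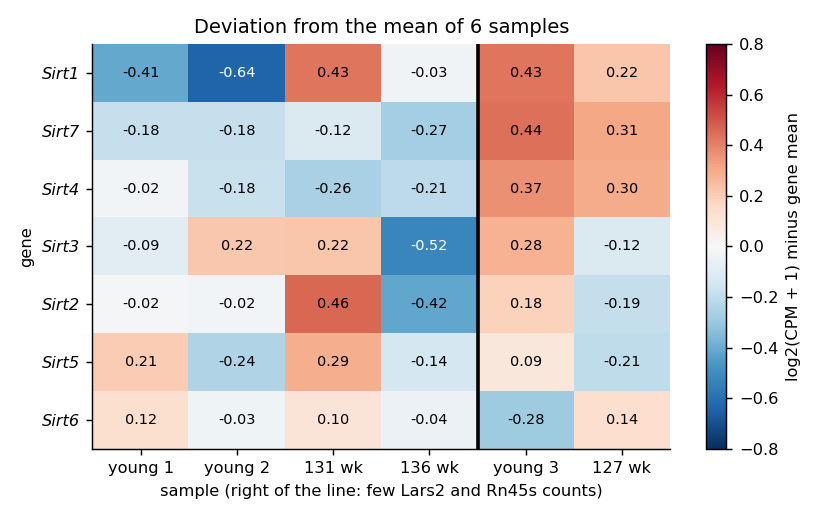
Each gene's log2(CPM + 1) in each sample minus its mean over 6 samples, with libraries with few Lars2 and Rn45s counts to the right of the line. Sirt4 and Sirt7 are positive in both of those libraries and negative in the other 4, and the 131- and 136-week samples have opposite signs for Sirt2 (0.46 and -0.42).

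The 7 genes did not move as a block across the samples. Young replicate 3 held the highest value for 4 of 7 genes (Sirt1, Sirt3, Sirt4 and Sirt7) but the lowest for Sirt6, and the 136-week sample held the lowest for 3 of 7 (Sirt2, Sirt3 and Sirt7). In both ages, 4 of 7 genes were higher in the library with few Lars2 and Rn45s counts than in the mean of the others, against 34.1% of all genes tested. By at least 0.5 on log2(CPM + 1) in both ages, 0 of 7 were, against 5.67% of all genes, but Sirt7 (0.623 in young and 0.499 in aged ECs) and Sirt4 (0.464 and 0.531) missed this limit narrowly. Sirt1 and Sirt3, which are also among the 4 genes, were higher by only 0.03 in aged ECs. The distance between profiles, taken as the root mean square difference of mean-centred log2(CPM + 1) over the 6 samples, was smallest for Sirt4 and Sirt7 (0.10) and next smallest for Sirt2 and Sirt3 (0.16) and for Sirt2 and Sirt5 (0.19). It was largest for Sirt1 and Sirt6 (0.46).

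Outside the family, 12454 genes with a mean of at least 1 CPM were ranked by the same distance. Nearest to Sirt1, the sirtuin with the smallest p, were Rab4a (0.05), Myrip (0.07) and Aox1 (0.10). Rab4a, for example, was at 7.70, 6.95 and 15.4 CPM in young samples and at 13.8, 15.7 and 11.5 CPM at 127, 131 and 136 weeks, with the same low young replicates 1 and 2 as Sirt1. Nearest to Sirt2, the sirtuin with the highest FPKM, were Thap6 (0.06), Glce (0.06) and Ccdc85b (0.07).

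The windows just before the transcription starts were searched for known motifs on both strands. RefSeq start-site sequences were found for all 7 genes, with 2 starts each for Sirt3 and Sirt6, and the windows matched the mm9 genome exactly. The E-box CACGTG occurred before the start of Sirt1 only, at 2 sites, and in 6.02% of all 32851 promoters. The core GCGCATGC of the NRF1 motif occurred in Sirt6 and Sirt7 (2.26% of all promoters), and the ETS core CCGGAAGT in Sirt3 and Sirt6 (2.88%). CCAAT boxes occurred in Sirt2, Sirt3 and Sirt5 (33.8%), and the GC box GGGCGG in all but Sirt4 (32.7%). The FOXO core TGTTTAC was found in 0 of 7 (3.17% of all promoters). Sirt4 held none of the 6 motifs. A match is a description of the letters in the window and not of a bound factor.

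The Sirt1 window is shown as the sirtuin with the largest age estimate and with the only E-boxes of the family. Its bases before the start are 79.2% G or C with 39 CpG, against medians of 52.4% and 6 over all promoters. The part outside annotated exons is chr10:62801799-62802033 of mm9, minus strand, and lies within the span of the longer gene model given above. The capitals mark the E-boxes.
Sirt1 promoter: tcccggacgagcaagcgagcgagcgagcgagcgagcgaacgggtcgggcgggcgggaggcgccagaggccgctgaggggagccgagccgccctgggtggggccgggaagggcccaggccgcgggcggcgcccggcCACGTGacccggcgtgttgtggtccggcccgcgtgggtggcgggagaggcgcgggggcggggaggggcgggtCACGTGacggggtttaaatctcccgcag
The NRF1 core sites of the other nuclear members are shown with 8 bases on each side, at chr10:81090439-81090462 for Sirt6 and chr11:120486337-120486360 for Sirt7, both minus strand, with the core in capitals. In Sirt6, a match on the other strand overlaps this one. Unlike the Sirt1 stretch, these sites were not limited to bases outside annotated exons, and both lie within the gene spans given above. The Sirt7 window held 0 bases outside exons. In this Sirt6 window the longest stretch outside exons was chr10:81090543-81090561, which does not hold the site.
Sirt6 site: tcaggaggGCGCATGCgctctgga
Sirt7 site: ccgggcccGCGCATGCgtctctgt

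Since sirtuins depend on NAD, the genes that make it were described next. Of 25 listed NAD synthesis genes, 23 were tested (Ido2 and Acmsd were below the filter), and edgeR called 0 at an adjusted p below 0.05. At an unadjusted p below 0.05, 2 were higher (Nampt and Ido1) and 1 was lower (Tdo2) in aged ECs, against 8.32% and 4.32% of all genes. In CPM, aged values lay above young values without overlap for Nampt and Nmnat3 and below them for Tdo2, against 9.62% and 8.33% of all genes. The median log2 fold change was -0.10.

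Nampt, the rate-limiting enzyme of the salvage of nicotinamide to NAD, was at 79.0, 93.2 and 102 CPM in young samples and at 121, 103 and 139 CPM at 127, 131 and 136 weeks. In CPM all aged samples were above all young samples, though the 131-week sample only just. In FPKM the 131-week sample (22.6) was just below young replicate 3 (22.9), so that the ages overlapped. The mean was 91.6 ± 11.8 CPM in young and 121 ± 18.1 CPM in aged ECs, with a log2 fold change of 0.41 (SE 0.17, edgeR unadjusted p = 0.0462, adjusted p = 0.386). The difference was 0.48 on log2(CPM + 1) among libraries with many Lars2 and Rn45s counts and 0.24 between those with few.

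The Nmnat enzymes, which complete the NAD molecule, were low. Nmnat1, the nuclear enzyme, had a mean of 3.43 CPM in young and 2.95 CPM in aged samples (log2 fold change -0.21, edgeR adjusted p = 0.845). Nmnat3, the mitochondrial enzyme, was at 0.558, 1.40 and 1.96 CPM in young and at 1.96, 3.93 and 2.84 CPM in aged samples (log2 fold change 1.15, SE 0.55, edgeR adjusted p = 0.447), and the lowest aged and the highest young sample were nearly tied. Its aged-minus-young difference on log2(CPM + 1) was 1.17 among libraries with many Lars2 and Rn45s counts and 0.002 between those with few. Nmnat2 reached 9.99 CPM in the 136-week sample and stayed between 1.99 and 3.54 CPM in the other 5 (adjusted p = 0.448).

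Tdo2 and Ido1 open the synthesis of NAD from tryptophan, and both were low. Tdo2, which is abundant in hepatocytes, was at 1.70 to 4.29 CPM in young and 1.34 to 1.55 CPM in aged samples (log2 fold change -1.20, edgeR adjusted p = 0.352). The summed level of 9 hepatocyte markers was also higher in young (130 to 190 CPM) than in aged samples (71.7 to 99.0 CPM), and its part in this value was not tested. For Tdo2, aged minus young on log2(CPM + 1) was -1.10 among libraries with many Lars2 and Rn45s counts and -0.09 between those with few. Ido1 was 2.52 CPM in the 136-week sample, which had the most leukocyte marker counts, and at most 0.516 CPM in the others (adjusted p = 0.374). The part of leukocyte RNA in it was not tested.
Nadk, which phosphorylates NAD to NADP, and Nnmt, which methylates nicotinamide, were not called either (log2 fold change -0.10 and 0.75, edgeR adjusted p = 0.840 and 0.715).

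**Figure D4:**
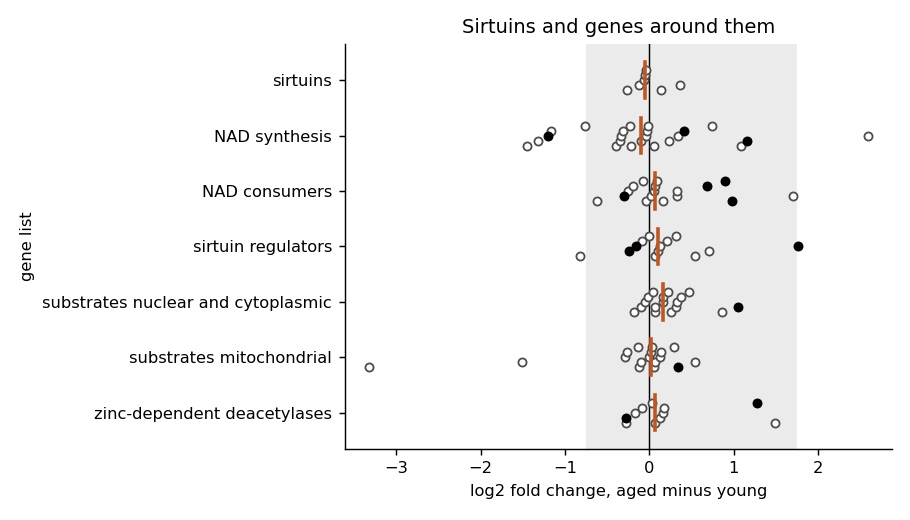
Log2 fold change (aged minus young) of each tested sirtuin and of each tested gene of 6 related lists, 1 point per gene, with the median of a list as an orange bar. Filled points are genes whose young and aged samples did not overlap in CPM, and the grey band is the 5th to 95th percentile of all genes tested (-0.74 to 1.73). The sirtuins span -0.27 to 0.36 and hold 0 filled points.

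Other enzymes use the same NAD. All 17 listed consumers were tested, and edgeR called 0 at an adjusted p below 0.05, with 2 higher (Parp3 and Parp16) and 0 lower in aged ECs at an unadjusted p below 0.05, against 8.32% and 4.32% of all genes. The median log2 fold change was 0.07. Cd38, the main NAD glycohydrolase of many tissues, was at 1579, 1402 and 1050 CPM in young samples and at 753, 1300 and 559 CPM at 127, 131 and 136 weeks. The 127- and 136-week samples were the lowest and the 131-week sample lay among the young samples, so that the ages overlapped. The log2 fold change was -0.63 (SE 0.33, edgeR adjusted p = 0.497).

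Bst1, a second NAD glycohydrolase that also encodes the vascular endothelial stem cell marker CD157 of the study, was at 3.28, 2.93 and 1.58 CPM in young samples and at 3.34, 3.34 and 8.73 CPM in aged samples. In CPM the 136-week sample stood apart and the other aged samples were only just above the highest young sample (log2 fold change 0.99, SE 0.50, edgeR adjusted p = 0.478). In FPKM the 131-week sample (1.46) was below young replicate 1 (1.48), so that the ages overlapped. The 136-week sample had the most leukocyte marker counts, and the part of leukocyte RNA in its Bst1 value was not tested. Parp16, a poly(ADP-ribose) polymerase relative of the endoplasmic reticulum, was at 6.63 to 8.45 CPM in young and 11.9 to 18.3 CPM in aged samples (log2 fold change 0.90, SE 0.24, edgeR adjusted p = 0.256). It was the only consumer called by DESeq2 (adjusted p = 0.0365). Parp3 had a log2 fold change of 0.68 (edgeR adjusted p = 0.289) and was also higher in every aged sample, while Parp11 was lower in every aged sample (log2 fold change -0.29, adjusted p = 0.524). Without overlap, 3 of 17 consumers lay above and 1 below the young samples, against 9.62% and 8.33% of all genes. Parp1, the main polymerase of the DNA damage response, had a log2 fold change of 0.09 (adjusted p = 0.847). Sarm1 was at 0 to 1.17 CPM, near the floor, and its adjusted p was 0.581.

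Of 13 genes known to regulate Sirt1 or to act with it, edgeR called 0 at an adjusted p below 0.05, and 2 (Pparg and Hic1) were higher and 0 lower in aged ECs at an unadjusted p below 0.05, where all genes had 8.32% and 4.32%. The median log2 fold change was 0.10. Pparg, a nuclear receptor that is bound and repressed by Sirt1, was at 9.71, 16.4 and 14.9 CPM in young samples and at 52.3, 32.3 and 54.8 CPM at 127, 131 and 136 weeks. All aged samples were above all young samples, both among the libraries with many Lars2 and Rn45s counts and between those with few (differences of 1.66 and 1.75 on log2(CPM + 1)). The log2 fold change was 1.77 (SE 0.28, edgeR adjusted p = 0.181, DESeq2 adjusted p = 6.56e-06). Pparg is in a list that the study chose on these samples, so its direction is not independent evidence.

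Hic1, a transcriptional repressor of Sirt1, was at 53.7 to 73.7 CPM in young and 72.7 to 111 CPM in aged samples (log2 fold change 0.54, edgeR adjusted p = 0.361), and Ccar2, a protein inhibitor of Sirt1, had a log2 fold change of 0.10 (adjusted p = 0.886). Senp1, a SUMO protease that acts on Sirt1, and Ctbp1, a corepressor that works with Hic1, were lower in every aged than in every young sample (log2 fold change -0.24 and -0.15, edgeR adjusted p = 0.553 and 0.670). Without overlap, 1 of these 13 genes lay above and 2 below the young samples, against 9.62% and 8.33% of all genes.

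Sirtuins act on proteins, so transcript levels of their substrates do not read out sirtuin activity. Of 17 listed nuclear and cytoplasmic substrates, edgeR called 0 at an adjusted p below 0.05. The median log2 fold change was 0.16, and 13 of 17 were positive, against 51.1% of all genes. At an unadjusted p below 0.05, 1 (Nr1h3) was higher and 0 were lower, against 8.32% and 4.32% of all genes. Nos3, the endothelial nitric oxide synthase, had a mean of 307 ± 71.5 CPM in young and 317 ± 74.2 CPM in aged ECs (log2 fold change 0.04, adjusted p = 0.966). Nr1h3, which encodes the nuclear receptor LXRα, had an edgeR unadjusted p of 0.0273 and an adjusted p of 0.344 (log2 fold change 0.86). It was at 14.2 to 16.1 CPM in young samples and at 38.0, 15.5 and 28.5 CPM at 127, 131 and 136 weeks, so that the ages overlapped. The 127- and 136-week samples also had the highest leukocyte marker sums (194 and 503 CPM), and the part of leukocyte RNA in Nr1h3 was not tested. Ppargc1a, at levels of at most 1.10 CPM, was higher in every aged sample in CPM. Its 131-week sample (0.700 CPM) and young replicate 3 (0.694 CPM) were nearly tied. In FPKM young replicate 3 (0.109) was above the 127- and 131-week samples (0.107 each), so that the ages overlapped. Without overlap, 1 of 17 lay above and 0 below the young samples, against 9.62% and 8.33% of all genes.

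Of 17 listed mitochondrial substrates, edgeR also called 0, with a median log2 fold change of 0.02. At an unadjusted p below 0.05, 0 were higher and 2 were lower, against the same shares of all genes. The urea cycle genes Cps1 and Otc, both abundant in hepatocytes, had unadjusted p-values of 0.0269 and 0.0411 (log2 fold change -3.32 and -1.51, edgeR adjusted p = 0.343 and 0.374). Cps1 was at 9.15 and 5.10 CPM in young replicates 1 and 2 and below 1 CPM in the other 4 samples, and the part of hepatocyte RNA in this was not tested. Sod2, the mitochondrial superoxide dismutase that Sirt3 deacetylates, was higher in every aged sample (log2 fold change 0.34, adjusted p = 0.435). Without overlap, 1 of 17 lay above and 0 below the young samples, against 9.62% and 8.33% of all genes.

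The zinc-dependent deacetylases, an unrelated family that also removes acetyl groups, were counted in the same way. Of 11 genes, edgeR called 0 at an adjusted p below 0.05, and 2 (Hdac9 and Hdac11) were higher and 0 lower in aged ECs at an unadjusted p below 0.05, beside 8.32% and 4.32% over all genes. The median log2 fold change was 0.07. Hdac11 was at 1.04 to 2.05 CPM in young and 2.40 to 4.94 CPM in aged samples (log2 fold change 1.27, SE 0.47, adjusted p = 0.346), and it too is in a list that the study chose on these samples. Hdac9 had a log2 fold change of 1.48 (adjusted p = 0.325) and overlapped between the ages. Hdac1 was lower in every aged sample (log2 fold change -0.28, adjusted p = 0.473). Without overlap, 1 of 11 lay above and 1 below the young samples, against 9.62% and 8.33% of all genes.

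**Figure D5:**
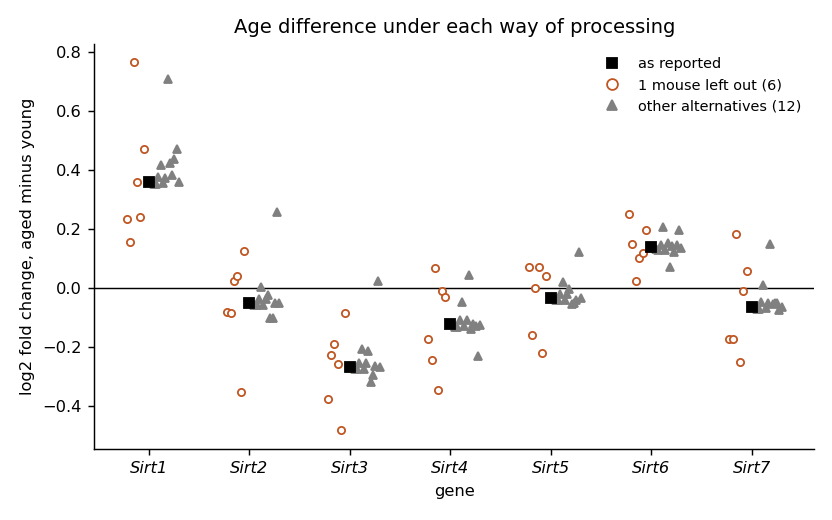
Log2 fold change (aged minus young) of each sirtuin as reported (squares), with 1 mouse left out (open circles) and under 12 other alternatives of normalization, filter, test or covariate (triangles). The values of Sirt1 (0.15 to 0.76) and Sirt6 (0.02 to 0.25) stay above 0, and those of the other 5 genes lie on both sides of it.

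Across 18 alternatives of processing, no sirtuin reached an adjusted p below 0.05. The log2 fold change of Sirt1 and of Sirt6 kept a positive sign in all 18, and the lowest adjusted p of any sirtuin was that of Sirt1 under limma-voom with sample quality weights (log2 fold change 0.71, adjusted p = 0.217). The sign of Sirt3 held in 17 of 18, that of Sirt4 in 16, that of Sirt7 in 14, and those of Sirt2 and Sirt5 in 13 each. When the edgeR fit also held a term for the mean leukocyte marker level, the values of Sirt2 and Sirt3 were 0.26 and 0.02 in place of -0.05 and -0.27.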

How the data were processed

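RNA from 6 samples of sorted liver ECs was sequenced in 75-base single-end mode. According to the submitters' processing notes, CASAVA 1.8.2, TopHat2 2.1.0 (mm9) and Cuffnorm 2.2.1 were used. The authors deposited whole-number read counts without normalization for 24421 gene symbols, and FPKM values scaled between samples by Cuffnorm for 24346. The counting program, annotation and use of strand are not given in the sources used here. Columns that belong to no sample numbered 0.

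Genes were kept if 1 or more samples reached a CPM of 0.5, normalized by TMM and tested with the quasi-likelihood test of edgeR 4.0.16 (R 4.3.3) with Benjamini-Hochberg adjustment at 0.05. The SE is the log2 fold change over the square root of F. Fold changes of low genes depend on the default prior count of the edgeR fit. A prior count of 1 was used for the log2 CPM behind the leukocyte marker term. DESeq2 1.42.0, limma 3.58.1 (on voom weights and on log2 FPKM), other normalizations and filters, covariates and the removal of each mouse were alternatives. The test was tried on simulated counts. No 2 samples of an age agreed within sampling noise (lowest chi-square per degree of freedom 20.2). The Lars2 and Rn45s split was set at 3% of counts.

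Members and lists were chosen with earlier results of these data known. Named genes are all sirtuins, a fixed set around NAD (Nampt, Nmnat1, Nmnat2, Nmnat3, Nadk, Nnmt, Cd38, Bst1, Sarm1, Parp1, Ccar2, Nos3 and Hdac11), up to 4 list genes per direction with an unadjusted p below 0.05, and the 3 genes nearest in profile to 2 sirtuins. Parp11, Senp1, Ctbp1, Ppargc1a, Sod2 and Hdac1 were named after their values were seen, for their lack of overlap in CPM. Foxo3 and Trp53 are in both the regulator and the substrate list. Promoter sequences are from RefSeq, placed on mm9 by exact match, and gene positions and coding sequences are from GENCODE. From the authors' own tables of fold changes and p-values, gene names alone were used, to mark list genes that the study had chosen on these samples.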

Additional observations from a re-analysis of the deposited data

How the results depend on the processing

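No paired analysis was possible because the labels number the young samples only, so that the ages share no replicate number. The number of sirtuins called was 0 in all 18 alternatives. Signs near 0 turned: with total counts alone, Sirt2 was 0.0029, Sirt5 0.019 and Sirt7 0.0096 (log2 fold change), with limma-voom Sirt4 was 0.043 and Sirt7 0.15, and with the leukocyte marker term Sirt2 was 0.26, Sirt3 0.024 and Sirt5 0.12. With 1 mouse left out, Sirt1 ran from 0.15 to 0.76, Sirt3 from -0.48 to -0.09, Sirt6 from 0.02 to 0.25, Sirt2 from -0.35 to 0.12, Sirt4 from -0.35 to 0.067, Sirt5 from -0.22 to 0.071 and Sirt7 from -0.25 to 0.18. Over all genes, where the reported test called 0, DESeq2 called 484 higher and 155 lower, limma-voom 13 and 2, the absence of a filter 3 and 1, the library term 1 and 1, the leukocyte term 3 and 9, and the removal of 1 mouse 0 to 1 higher. DESeq2 also called 1 NAD consumer (Parp16), 1 regulator (Pparg) and 1 substrate (Cps1), where edgeR called 0. Of 6 neighbouring pairs in the order of levels, 3 held in every sample, 5 in young samples alone, 4 in aged samples alone, 3 to 4 with 1 mouse left out, 3 with CPM per kilobase of the longest transcript and 2 with CPM per kilobase of all annotated exons. The causes were not tested. With 3 mice an age, an exact permutation test of 1 value cannot go below 0.1, and the intervals of the sirtuins leave changes of the sizes given above undecided. The Cuffnorm scaling of the FPKM, on which the order of levels rests, cannot be redone from these files.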
